A study of Mus musculus with 6 samples.

Results

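The 10 genes described here encode enzymes and a pump that handle drugs, toxins and other foreign compounds in the jejunal epithelium of the mouse. They were chosen by symbol in the list of 32285 genes that each library was counted against. The set holds the cytochromes P450 Cyp3a11, Cyp3a13, Cyp3a25, Cyp2b10, Cyp2c65 and Cyp2c66, the carboxylesterases Ces2a and Ces1f, the glucuronosyltransferase Ugt1a1 and the efflux pump Abcb1a, and each of the 10 symbols had 1 row in the list. The question asked was in which epithelial cells these genes were detected, where along the villus their levels were highest, and how the levels differed between a low-fat diet, a high-fat diet and a high-fat diet followed by weight-loss surgery.

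Single-cell RNA sequencing was performed on jejunal epithelium of male wild-type C57BL/6J mice of about 30 weeks of age, fasted overnight before collection. LFD sham mice were kept on a low-fat diet and HFD sham mice on a high-fat diet, each for 16 weeks before a sham operation in which the stomach was only pressed with forceps. HFD VSG mice were kept on the high-fat diet for the same time and then underwent vertical sleeve gastrectomy (VSG), in which most of the stomach is removed and a narrow sleeve is left. The original diet was given again after recovery, and tissue was collected 5 weeks after surgery. From each condition 1 crypt-labelled and 1 villus-labelled library was made, with cells of 3 LFD sham, 3 HFD sham or 2 HFD VSG mice pooled before loading. Each of the 6 groups was therefore 1 library. No difference between conditions could be set against a spread between mice, and no test was run. Both libraries of a condition came from the same mice, so agreement of the fractions is not agreement between separate animals. UMIs (unique molecular identifiers, 1 per captured mRNA molecule) were counted. Levels are given as CPM, the UMIs of a gene in a cell class of a library scaled to the usual fixed total of all UMIs in that class, and differences between libraries as log2 ratios of these levels. The 95% intervals are exact Poisson or conditional binomial limits and cover counting error only, and a log2 ratio is called past the size limit when it lies beyond 0.5 in either direction.

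The libraries held 7765 to 12012 called barcodes and 60522766 to 155522445 UMIs in them. After filtering, 24335 cells passed (3042 to 4770 per library), with a median of 8388.5 to 30398.5 UMIs per cell, and the villus-labelled HFD VSG library was the deepest. Cells were clustered without the 10 genes and named from marker lists, giving 13159 enterocyte-like cells (1595 to 3314 per library), while 3716 cells stayed in 2 unnamed clusters. The fraction labels and the markers were opposed. Stem-like, progenitor-like and Paneth-like cells made up 6.32% to 11.9% of epithelial cells in the crypt-labelled libraries and 18.9% to 41.0% in the villus-labelled libraries, so the labels are used below as names only. Any pair of libraries shared 17 to 43 barcodes, at most 0.450% of the barcodes of a library. Enterocyte-like cells were ordered along the villus by the ratio of tip to bottom marker UMIs and cut into 5 position bins at the quintiles of all libraries together. Some of these position markers come from a list that the study chose on these same libraries. The libraries filled the bins unequally. Bin 1, the bottom, held 77.5% of the enterocyte-like cells of the villus-labelled HFD VSG library and 2.41% of those of the crypt-labelled LFD sham library. Bins 4 and 5 of the former held only 44 and 29 cells.

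Enterocytes and hepatocytes clear foreign compounds in successive phases. In phase I, cytochromes P450 oxidise a compound and carboxylesterases cleave its ester bonds. In phase II, transferases attach a polar group such as glucuronic acid, and efflux pumps then carry parent compounds and conjugates out of the cell. Many of these genes are targets of the nuclear receptors PXR (encoded by Nr1i2) and CAR (encoded by Nr1i3), which bind pairs of AGNTCA half-sites as partners of RXR. In the small intestine, where these proteins meet compounds taken in with food, they limit how much of an oral drug reaches the blood.

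Transcripts of the 10 genes were found mainly in enterocyte-like cells. Between 72.1% (Ces1f) and 93.0% (Cyp2b10) of the UMIs of a gene in passing cells were in that class. Enterocyte-like cells also made up 37.0% to 69.5% of the passing cells of a library, so these shares partly follow the size of the class. Cyp3a11, Cyp3a13, Cyp3a25, Cyp2b10, Cyp2c65, Cyp2c66, Ces2a and Abcb1a were higher in enterocyte-like cells than in each other named class in every library compared. The largest median difference from early progenitor-like cells was that of Cyp3a11, the main mouse counterpart of human CYP3A4. Its level in enterocyte-like cells was 13.1 to 77.3 times that in early progenitor-like cells, the class next to enterocytes in the lineage. Cyp2b10 followed with ratios of 7.58 to 55.9, and Cyp3a25 with 7.71 to 30.6. In contrast, Cyp2c65 was only 1.72 to 2.21 times, and Cyp2c66 1.66 to 2.20 times, as high in enterocyte-like as in early progenitor-like cells. The carboxylesterase Ces1f and the transferase Ugt1a1 did not keep this order. Ces1f was higher in early progenitor-like than in enterocyte-like cells in 5 of 6 libraries, with enterocyte-to-progenitor ratios of 0.296 to 1.40, the villus-labelled HFD VSG library being the exception. Ugt1a1 was higher in enterocyte-like cells in 5 of 6 libraries, the crypt-labelled HFD sham library being the exception, with ratios of 0.807 to 1.77. Both genes were lower in cycling progenitor-like and in stem-like cells than in enterocyte-like cells in all 6 libraries.

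**Figure D1:**
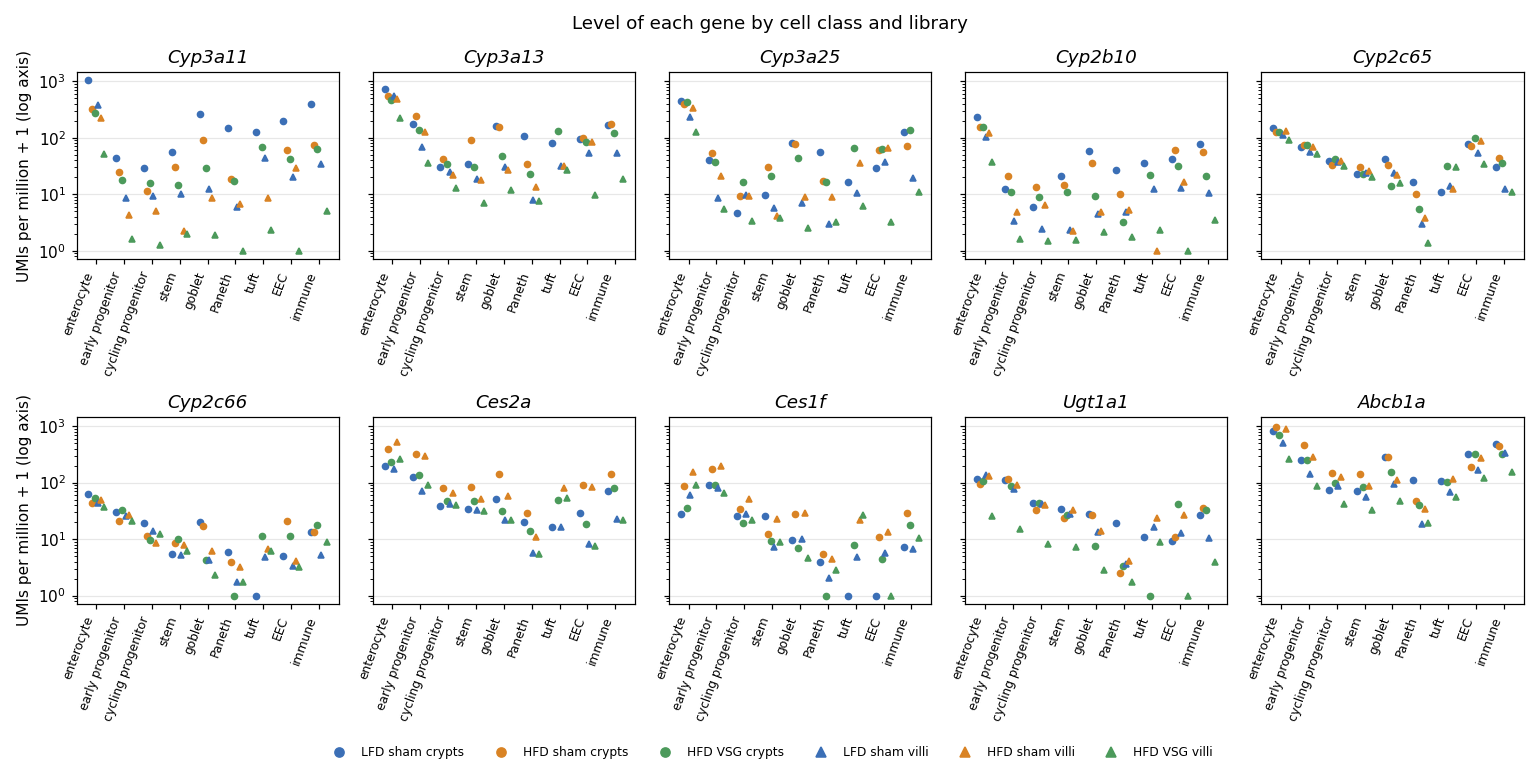
Level of each of the 10 genes by cell class and library, in CPM plus 1 on a log axis, with 1 point per class and library and classes with under 20 cells left out. Enterocyte-like cells hold the highest points of 8 genes in each library, whereas Ces1f points of early progenitor-like cells lie above those of enterocyte-like cells in 5 of 6 libraries.

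Among the other classes, enteroendocrine-like cells (EEC), which secrete gut hormones, held relatively high levels of Cyp2c65 and Abcb1a. The enterocyte-to-EEC ratio was 1.29 to 2.71 for Cyp2c65 and 2.13 to 5.07 for Abcb1a, on 119 and 400 UMIs in EEC. Paneth-like cells were low for most of the genes, with a median enterocyte-to-Paneth ratio between 19.3 (Abcb1a) and 37.2 (Cyp2c65). Paneth markers summed to 617970 to 679699 CPM in these cells, which lowers the CPM of every other gene there. Cyp2c65 did not reach a mean of 20 UMIs in any pair of Paneth-like libraries. Droplets also take up free RNA released by broken cells, and immune-like cells, led by lymphocyte genes such as Gzma, Ccl5 and Cd7, were used to show its size. In the 5 libraries with at least 20 immune-like cells, the summed enterocyte markers reached 7.52% to 28.1% of their enterocyte-like level in immune-like cells. The villus-labelled HFD sham library had 7 immune-like cells and is left out of this comparison. The 9 enzyme genes lay between 7.02% and 48.5%, for example Cyp3a25 at 7.72% to 30.5% and Ugt1a1 at 7.02% to 36.0%. Abcb1a, whose product P-glycoprotein is also known from lymphocytes, stood apart at 45.6% to 66.6%, above every enzyme gene in 4 of these 5 libraries and above 8 of them in the crypt-labelled HFD VSG library, where Ces1f stood at 48.5% on 6 UMIs. Before thinning, 89.7% to 97.6% of enterocyte-like cells and 54.8% to 73.8% of immune-like cells of these libraries held an Abcb1a UMI, at median depths of 13495 to 34782 and 3100 to 5788 UMIs. When each cell was thinned to 1500 UMIs, leaving out at most 2 shallower cells of a class in a library, the shares were 31.8% to 69.3% and 21.5% to 45.0%. For Cyp3a11 the thinned shares were 6.21% to 66.6% and 0.43% to 34.1%, against 32.3% to 94.3% and 2.80% to 60.8% before thinning.

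**Figure D2:**
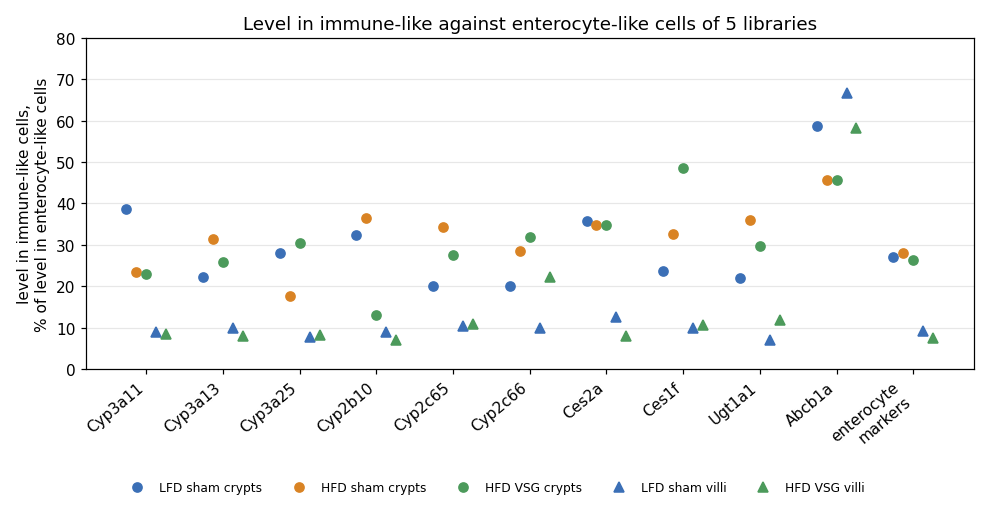
Level of each gene in immune-like cells as a percentage of its level in enterocyte-like cells of the same library, for the 5 libraries with at least 20 immune-like cells, with the summed enterocyte markers at the right. Abcb1a lies between 45.6% and 66.6%, while the enterocyte markers lie between 7.52% and 28.1%.

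Along the villus the genes fell into 3 patterns. Cyp3a13 was the only 1 of the 10 that increased at each step from bin 1 to bin 5 in all 6 libraries, by 0.72 to 1.98 in log2 from bottom to tip. Cyp3a11 and Cyp2b10 peaked in bin 4 in all 6 libraries, and Cyp3a25, Cyp2c65, Cyp2c66 and Abcb1a peaked in bin 3 or bin 4 in all 6. The carboxylesterases and Ugt1a1 were highest near the bottom, in bin 1 or 2, in all 6 libraries. The gradient of Ces1f was the largest of the set. Its log2 ratio of bin 5 to bin 1 was -6.15 to -3.23, although the bin 5 of the villus-labelled LFD sham, HFD sham and HFD VSG libraries held only 3, 13 and 2 Ces1f UMIs. Cyp3a11 ran the other way, with log2 ratios of 1.79 to 4.10. Ugt1a1 was lower in bin 5 than in bin 1 in 6 of 6 libraries (log2 -2.73 to -0.58), and Ces2a in 4 of 6. Median depth per cell was lower toward the tip, at 4944 to 16352 UMIs in bin 5 against 16016 to 35450 UMIs in bin 1.

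**Figure D3:**
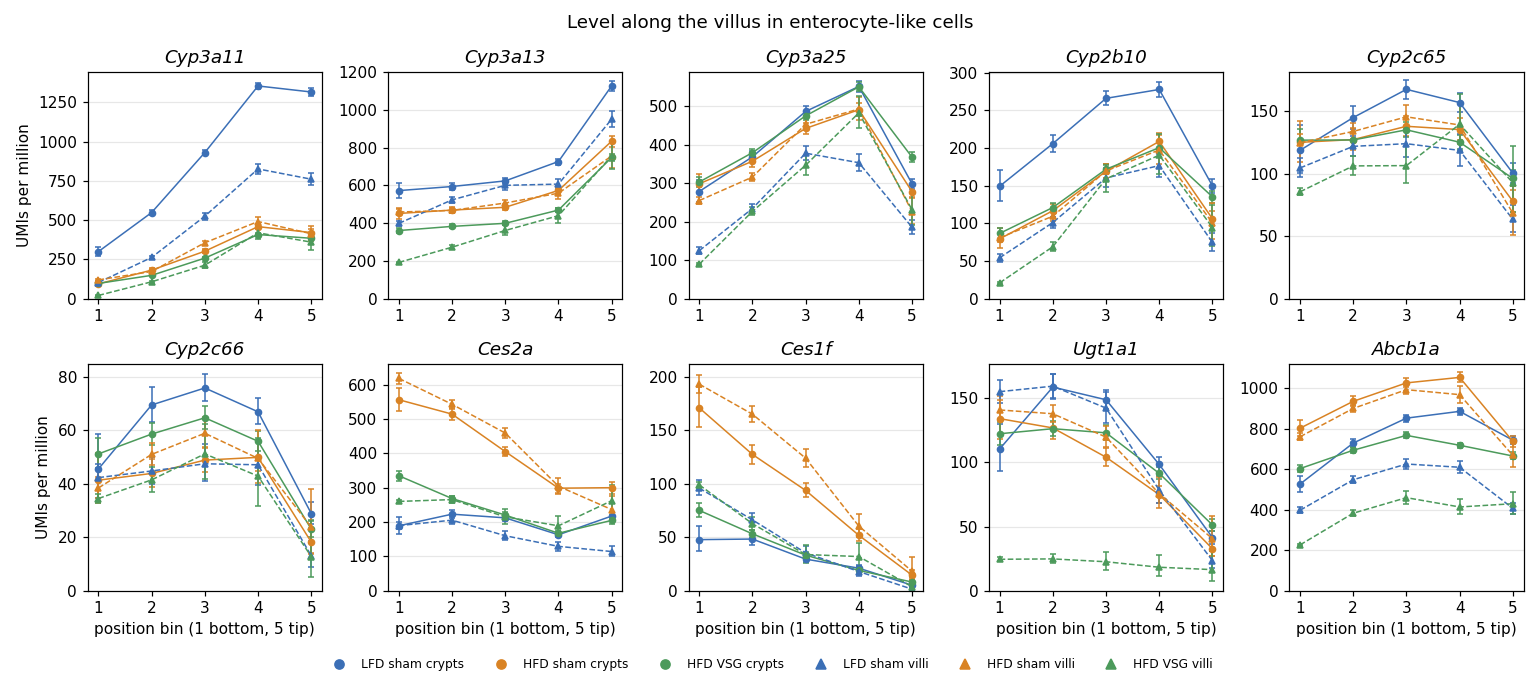
Level of each gene in CPM in 5 position bins of enterocyte-like cells, from bottom (bin 1) to tip (bin 5), with 1 line per library and 95% Poisson intervals as bars. Cyp3a13 is highest in bin 5 and Cyp3a11 and Cyp2b10 in bin 4 of all 6 libraries, and Ces2a, Ces1f and Ugt1a1 are highest in bin 1 or 2.

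The 3 genes of the Cyp3a family lie on chromosome 5 (Cyp3a11 at 145854426-145879964, Cyp3a25 at 145977194-146009618 and Cyp3a13 at 137892932-137921619, GRCm38, each on the minus strand). They accounted for nearly all Cyp3a transcripts here. Of the UMIs of 9 Cyp3a genes in enterocyte-like cells, 41.1% were Cyp3a13, 30.4% Cyp3a11 and 28.5% Cyp3a25. The promoters of Cyp3a11 and Cyp3a25 are shown because they were the members that held paired AGNTCA half-sites. Of the 250 bases before each RefSeq start (GRCm38.p6, minus strand, written 5′ to 3′), those outside the annotated gene are given, with each AGNTCA match on either strand in capitals.
Cyp3a11, 140 bases at chr5:145879965-145880104: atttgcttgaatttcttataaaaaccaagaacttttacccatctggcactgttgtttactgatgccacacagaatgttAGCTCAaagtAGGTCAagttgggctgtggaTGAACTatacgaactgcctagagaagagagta
Cyp3a25, 250 bases at chr5:146009619-146009868: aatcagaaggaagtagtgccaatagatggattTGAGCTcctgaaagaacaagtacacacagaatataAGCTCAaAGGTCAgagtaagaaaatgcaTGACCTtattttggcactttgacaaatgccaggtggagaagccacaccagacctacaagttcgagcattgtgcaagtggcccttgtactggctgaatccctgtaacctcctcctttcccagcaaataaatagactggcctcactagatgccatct
In the Cyp3a11 promoter a direct repeat of AGNTCA with any 4 bases between lay 172 bases before the start, and in the Cyp3a25 promoter a direct repeat with any 1 base between lay 183 bases before it. These arrangements were found, on either strand, in the 250 bases upstream of 0.111% and 0.167% of 27025 RefSeq promoters. Which receptor, if any, binds either repeat was not tested. None of the 9 members with a RefSeq promoter held a direct repeat with any 3 bases between (0.0555% of promoters) or an everted repeat, TGANCT and AGNTCA with any 6 bases between (0.0370%), in this window. A single AGNTCA, which the repeats include, was found in 5 of the 9 (Cyp3a11, Cyp3a25, Ces2a, Ugt1a1 and Abcb1a) and in 41.2% of all promoters. Ces1f was not in the RefSeq promoter table.

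Cyp3a11 oxidises a broad range of drugs and steroids and is a classical PXR target. In enterocyte-like cells of the crypt-labelled libraries its level was 1035 CPM in LFD sham, 316 in HFD sham and 272 in HFD VSG, and in the villus-labelled libraries 373, 225 and 49.6 CPM. The LFD sham library was the highest of the 3 conditions in both fractions. HFD sham was below LFD sham by a log2 ratio of -1.71 (-1.75 to -1.68) in the crypt-labelled and -0.73 (-0.77 to -0.68) in the villus-labelled libraries. The crypt-labelled difference was present in all 5 position bins (-1.67 to -1.56). The villus-labelled difference was past the limit in 4 of 5 bins, and in bin 1 the ratio was 0.21. Against HFD sham, the HFD VSG library was lower by a log2 ratio of -0.22 (-0.25 to -0.18) in the crypt-labelled pair and -2.18 (-2.25 to -2.12) in the villus-labelled pair. The crypt-labelled value was -1.04 with cells of at most 10% mitochondrial UMIs. In the villus-labelled pair HFD VSG was lower in all 5 bins and past the limit in 3 (-2.51 in bin 1, -0.68 in bin 2 and -0.74 in bin 3), and with the 5 bins weighted equally the value was -0.47. HFD VSG against LFD sham gave -1.93 and -2.91, and -1.78 and -1.14 with bins weighted equally. In early progenitor-like cells, where 20 to 94 UMIs stood behind each value, HFD sham was also below LFD sham, by -0.83 (-1.32 to -0.35) and -1.23 (-2.05 to -0.46). The free RNA of these libraries also held less Cyp3a11 in HFD sham, at 225 against 677 CPM crypt-labelled and 93.6 against 160 CPM villus-labelled. Summed enterocyte markers of early progenitor-like cells, given for Ces2a below, went the other way. The part of free RNA in these ratios was not tested.

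Cyp3a13, a Cyp3a enzyme also found in the liver, varied less. Its level was 737 CPM in LFD sham, 550.1 in HFD sham and 461 in HFD VSG crypt-labelled enterocyte-like cells, and 548, 487 and 219 CPM in the villus-labelled libraries. The order LFD sham, HFD sham, HFD VSG held in both fractions. The first step was within the limit, with log2 ratios of -0.42 and -0.17. In early progenitor-like cells it went the other way, at 0.45 (0.26 to 0.64) and 0.89 (0.73 to 1.07). Summed enterocyte markers of that class were also higher in HFD sham, and their part was not tested. In enterocyte-like cells HFD VSG was below LFD sham by -0.68 (-0.70 to -0.65) and -1.33 (-1.36 to -1.29), and by -0.63 and -0.61 with the bins weighted equally. Cyp3a25, in contrast, was nearly level in the crypt-labelled libraries, at 443 CPM in LFD sham, 402 in HFD sham and 437 in HFD VSG. In the villus-labelled libraries it was 234, 338 and 125 CPM, so that HFD sham was above LFD sham by 0.53 (0.48 to 0.58) and HFD VSG below HFD sham by -1.44 (-1.48 to -1.39). Both villus-labelled differences were past the limit in bin 1, at 1.03 (0.92 to 1.14) and -1.51 (-1.58 to -1.44), and in no other bin. With bins weighted equally they were 0.45 and -0.34, and the ratio of HFD VSG to LFD sham turned from -0.91 to 0.11. The last 300 transcript bases of Cyp3a25 were 94.7% identical to those of Cyp3a59, to which only 67 UMIs were assigned.

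Cyp2b10 is the classical CAR target and metabolises barbiturates among other compounds. It was the only Cyp2b gene with a UMI in enterocyte-like cells among 5 listed. Its level was 234 CPM in LFD sham, 152 in HFD sham and 152 in HFD VSG crypt-labelled cells, and 103, 120.1 and 35.9 CPM in the villus-labelled libraries. The LFD sham library was highest in the crypt-labelled set and the HFD sham library in the villus-labelled set. HFD sham was below LFD sham by a log2 ratio of -0.62 (-0.68 to -0.57) in the crypt-labelled and above it by 0.22 (0.14 to 0.29) in the villus-labelled pair, the latter inside the limit. HFD VSG against HFD sham gave 0.0048 (-0.049 to 0.058) and -1.74 (-1.82 to -1.67). The crypt-labelled value was -0.82 with cells of at most 10% mitochondrial UMIs. With bins weighted equally the villus-labelled value was -0.30, and that of HFD VSG against LFD sham went from -1.53 to -0.086. In bins 1 and 2, which held most enterocyte-like cells of that HFD VSG library, the ratios were -1.94 and -0.67 against HFD sham and -1.37 and -0.55 against LFD sham, and in bins 3 to 5 they were inside the limit. In early progenitor-like cells HFD sham was above LFD sham in the crypt-labelled pair, opposite to enterocyte-like cells, by 0.82 (0.099 to 1.57) on 50 and 25 UMIs. The villus-labelled ratio there was 0.74 (-0.23 to 1.75) on 24 and 16 UMIs. Summed enterocyte markers of that class were also higher in HFD sham, and their part was not tested.

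Cyp2c65 and Cyp2c66 are neighbours on chromosome 19 (39061015-39093944 and 39113898-39187072, GRCm38, plus strand) that oxidise fatty acids such as arachidonic acid. Their upstream sequences are shown because they are nearly the same. The 250 bases before each RefSeq start (GRCm38.p6, plus strand) are given with their longest shared run, of 48 bases, in capitals.
Cyp2c65, chr19:39060756-39061005: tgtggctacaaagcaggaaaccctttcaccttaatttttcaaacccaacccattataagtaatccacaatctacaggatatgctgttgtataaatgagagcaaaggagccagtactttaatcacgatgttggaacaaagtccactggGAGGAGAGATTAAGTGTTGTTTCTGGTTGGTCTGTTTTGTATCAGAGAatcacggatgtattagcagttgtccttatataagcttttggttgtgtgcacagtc
Cyp2c66, chr19:39113648-39113897: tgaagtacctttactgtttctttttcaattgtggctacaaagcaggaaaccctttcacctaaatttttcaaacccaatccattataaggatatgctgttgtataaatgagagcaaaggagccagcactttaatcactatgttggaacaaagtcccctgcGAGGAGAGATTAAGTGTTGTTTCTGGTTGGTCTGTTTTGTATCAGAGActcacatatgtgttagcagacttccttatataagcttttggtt
A local alignment matched 208 of 238 columns (87.4%), the highest identity of any pair of members, and the transcript ends were 91.6% to 97.3% identical, so reads may be split between the pair. Their levels moved together across the 30 combinations of library and position bin (Pearson r = 0.86, a description over points that share libraries and depth). Cyp2c65 was at 146, 125 and 124 CPM in LFD sham, HFD sham and HFD VSG crypt-labelled cells and at 111, 132.5 and 90.0 CPM in the villus-labelled libraries. The 6 values lay within a narrow span, with LFD sham crypt-labelled highest and HFD VSG villus-labelled lowest. Only HFD VSG against HFD sham in the villus-labelled pair was past the limit, at -0.56 with an interval (-0.62 to -0.50) that reaches the limit, and with bins weighted equally it was -0.20. Cyp2c66 was at 62.5, 43.1 and 53.3 CPM in the crypt-labelled and at 41.8, 48.2 and 35.9 CPM in the villus-labelled libraries. HFD sham against LFD sham in the crypt-labelled pair was just past the limit at -0.54, with an interval (-0.64 to -0.43) that spans it.

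Ces2a hydrolyses ester drugs and some acylglycerols in the intestine. It is the third of the Ces2 genes by UMIs here, with 17.7% of the UMIs of 7 genes, behind Ces2e and Ces2c. Its level was 199 CPM in LFD sham, 399 in HFD sham and 228 in HFD VSG crypt-labelled enterocyte-like cells, and 175, 524 and 258 CPM in the villus-labelled libraries. The HFD sham library was the highest and the LFD sham library the lowest in both fractions. HFD sham was above LFD sham by log2 ratios of 1.00 (0.96 to 1.05) and 1.58 (1.53 to 1.63), and HFD VSG below HFD sham by -0.81 (-0.84 to -0.77) and -1.02 (-1.06 to -0.99). All 4 values stayed past the limit with bins weighted equally (1.05, 1.44, -0.80 and -0.86), although in bin 5 of the villus-labelled pair, on 144 and 169 UMIs, HFD VSG against HFD sham gave 0.15 (-0.18 to 0.48). HFD VSG remained above LFD sham, by 0.20 (0.15 to 0.24) and 0.56 (0.51 to 0.61). Outside enterocyte-like cells, the differences of HFD sham from LFD sham and of HFD VSG from HFD sham had the same directions in early progenitor-like and goblet-like cells. In early progenitor-like cells HFD sham against LFD sham gave 1.36 (1.16 to 1.57) and 2.04 (1.90 to 2.19), and HFD VSG against HFD sham -1.22 (-1.36 to -1.07) and -1.70 (-1.79 to -1.62). The summed enterocyte markers moved in the same directions in early progenitor-like cells, at 33279 CPM in LFD sham, 37664 in HFD sham and 26392 in HFD VSG crypt-labelled and 17342, 22925 and 14162 CPM in villus-labelled cells. In goblet-like cells the 4 ratios were 1.48, 1.45, -2.16 and -1.44. The summed enterocyte markers moved with them there too, at 19350 CPM in LFD sham, 26286 in HFD sham and 9903 in HFD VSG crypt-labelled and 4382, 5208 and 2550.1 CPM in villus-labelled goblet-like cells, and their part in the ratios of both classes was not tested. HFD VSG against LFD sham in crypt-labelled goblet-like cells was -0.68 (-1.20 to -0.17), opposite to enterocyte-like cells.

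Ces1f, a carboxylesterase also found in the liver, held 69.4% of the UMIs of 8 Ces1 genes. Its level was 26.6 CPM in LFD sham, 85.3 in HFD sham and 35.1 in HFD VSG crypt-labelled cells, and 58.3, 154 and 89.9 CPM in the villus-labelled libraries. As for Ces2a, HFD sham was highest in both fractions. HFD sham was above LFD sham by 1.68 (1.57 to 1.79) and 1.40 (1.32 to 1.49), a 3.20-fold and 2.64-fold difference, and HFD VSG was below HFD sham by -1.28 (-1.37 to -1.19) and -0.78 (-0.83 to -0.72). In each of the 9 bins of the 2 fractions with enough UMIs, HFD sham was above LFD sham (1.01 to 1.84) and HFD VSG below HFD sham (-1.88 to -0.85). HFD VSG against LFD sham was within the limit in the crypt-labelled pair (0.40, 0.29 to 0.51) and past it in the villus-labelled pair (0.63, 0.54 to 0.71), where it became 0.091 with bins weighted equally. In early progenitor-like cells, HFD sham was above LFD sham by 0.93 (0.69 to 1.18) and 1.32 (1.17 to 1.47) and HFD VSG below HFD sham by -0.93 (-1.12 to -0.75) and -1.61 (-1.72 to -1.51). The summed enterocyte markers of early progenitor-like cells, given for Ces2a, moved in the same directions, and their part was not tested. Opposite to enterocyte-like cells, villus-labelled HFD VSG was below LFD sham in early progenitor-like cells, by -0.30 (-0.44 to -0.15). The same held in goblet-like cells, by -1.27 (-1.99 to -0.58) on 29 and 48 UMIs. This ratio was -0.37 (-0.70 to -0.035) in cycling progenitor-like and 0.37 (-0.28 to 1.08) in stem-like cells.

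**Figure D4:**
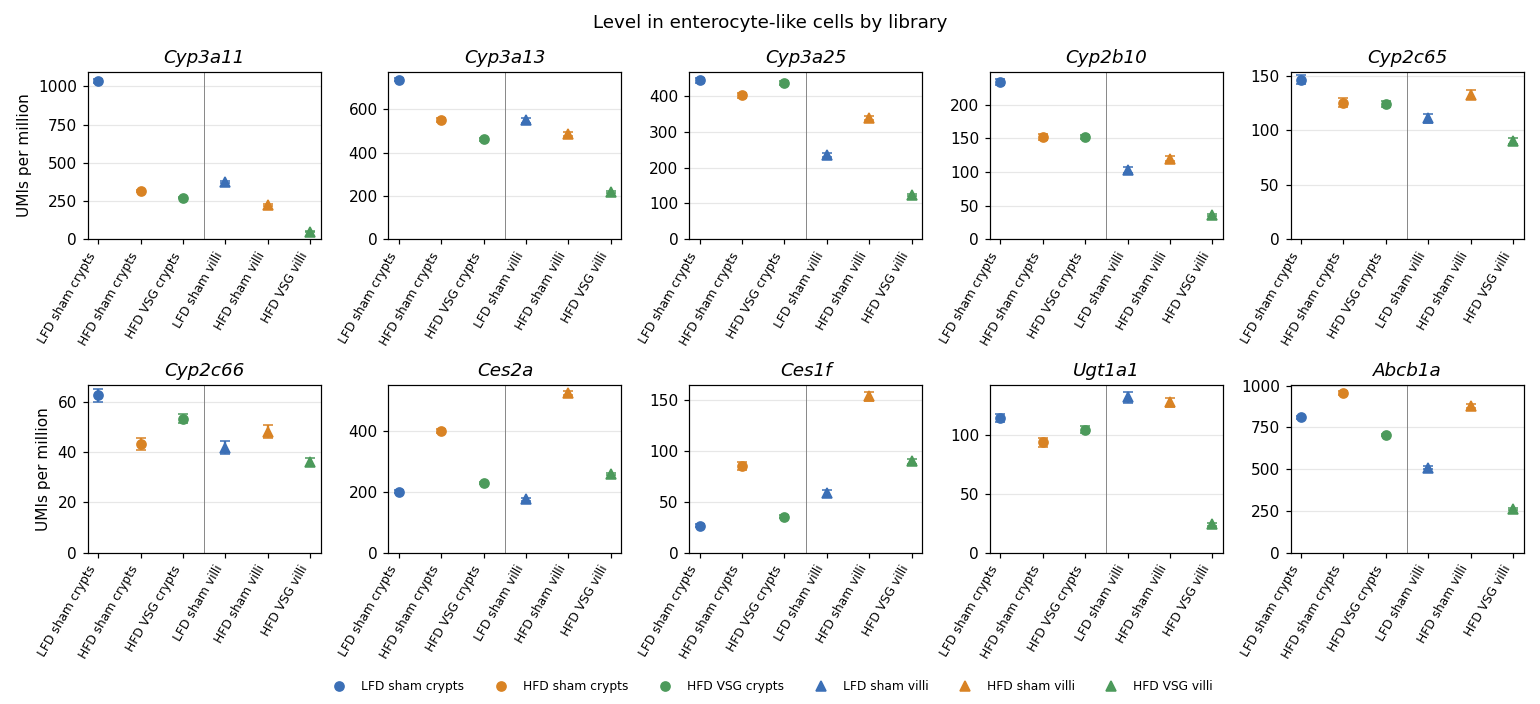
Level of each gene in enterocyte-like cells of the 6 libraries in CPM, with 95% Poisson intervals that cover counting error only and a separate linear axis for each gene. Cyp3a11 is highest in the LFD sham library, and Ces2a and Ces1f in the HFD sham library, of both fractions, and Ugt1a1 stands at 24.2 CPM in the villus-labelled HFD VSG library against 94.1 to 133 in the other 5.

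Ugt1a1 conjugates bilirubin and many drugs with glucuronic acid. It lies on chromosome 1 (88211959-88218997, GRCm38, plus strand) and shares 58.9% of its exon bases, and all of the last 300, with 8 other Ugt1a genes, so its counts are uncertain. Its level was 115 CPM in LFD sham, 94.1 in HFD sham and 105 in HFD VSG crypt-labelled cells, and 133, 128 and 24.2 CPM in the villus-labelled libraries. A single library, villus-labelled HFD VSG, stood apart and the other 5 lay close together. It was below HFD sham by a log2 ratio of -2.41 (-2.49 to -2.32), or 5.30-fold, and below LFD sham by -2.45 (-2.54 to -2.36). Unlike for the cytochromes, weighting the position bins equally left this difference at -2.28, and in the 4 bins with enough UMIs it was -2.53 to -2.05. The same library was also the lowest in early progenitor-like, cycling progenitor-like and stem-like cells. Early progenitor-like cells held 14.1 CPM there against 74.7 to 117 in the other 5 libraries, cycling progenitor-like cells 7.13 against 31.4 to 43.0, and stem-like cells 6.29 against 23.1 to 33.5. Ugt1a1 held 75.3% of the Ugt1a UMIs, and the next of the family were Ugt1a7c and Ugt1a6a. In that library Ugt1a6a was at 9.15 CPM, within its range of 5.82 to 10.5 over all libraries, and Ugt1a7c at 12.5, below its level of 16.0 to 35.5 in the other 5. In the crypt-labelled libraries the 3 ratios of Ugt1a1 lay between -0.29 and 0.16, and that of HFD VSG against HFD sham was 0.55 with cells thinned to 1500 UMIs. In goblet-like cells HFD VSG was below LFD sham in both fractions. The ratios were -1.99 (-3.05 to -1.04) crypt-labelled, on 12 and 43 UMIs, and -2.82 (-3.77 to -1.98) villus-labelled, on 14 and 68 UMIs. Summed enterocyte markers of goblet-like cells, given for Ces2a, were also lower, and their part was not tested.

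Abcb1a encodes P-glycoprotein, which pumps a wide range of drugs back into the gut lumen. It held 99.98% of the UMIs of the 2 Abcb1 genes. Its level was 809 CPM in LFD sham, 956 in HFD sham and 704 in HFD VSG crypt-labelled cells, and 508, 877 and 259.6 CPM in the villus-labelled libraries. HFD sham was the highest and HFD VSG the lowest condition in enterocyte-like cells of both fractions. The crypt-labelled ratios were within the limit, at 0.24 (0.22 to 0.27) for HFD sham against LFD sham and -0.44 (-0.46 to -0.42) for HFD VSG against HFD sham, the latter at -0.56 with cells of at most 10% mitochondrial UMIs. The villus-labelled ratios were past it, at 0.79 (0.76 to 0.82) and -1.76 (-1.79 to -1.73), and remained so with bins weighted equally (0.73 and -1.17). The villus-labelled difference of HFD VSG from LFD sham was -0.97, and -0.44 with bins weighted equally. Other crypt-labelled classes did not all keep this order of conditions. HFD sham against LFD sham gave 0.86, 1.01 and 0.96 in early progenitor-like, cycling progenitor-like and stem-like cells. It gave -0.0033 in goblet-like, -1.23 (-1.86 to -0.65) in Paneth-like and -0.75 (-1.56 to -0.017) in EEC, the last on 19 and 78 UMIs. HFD VSG against HFD sham in EEC was 0.75 (0.025 to 1.54). The part of free RNA in these ratios was not tested.

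For the set as a whole, the carboxylesterases were higher and Cyp3a11 lower on the high-fat diet in both fractions, and the other genes differed less or in 1 fraction only. In HFD sham against LFD sham, 5 of 10 members were past the limit in the crypt-labelled pair (Ces2a and Ces1f higher, Cyp3a11, Cyp2b10 and Cyp2c66 lower) against 14.4% of the 10760 genes measured there (6.27% higher and 8.15% lower). In the villus-labelled pair 5 of 10 were past it (Cyp3a25, Ces2a, Ces1f and Abcb1a higher, Cyp3a11 lower) against 17.2% of 10956 genes (5.23% higher and 11.9% lower). The members' median log2 ratio was -0.26 and 0.24, and that of all genes -0.00060 and -0.039. Cyp3a11, Ces2a and Ces1f were past the limit the same way in both fractions, and no member was past it in opposite ways in this or either of the other comparisons. With the 3 lower bins weighted equally, Cyp3a11 in the villus-labelled pair was at -0.46, inside the limit. Ranked among all genes of the crypt-labelled pair, Cyp3a11 stood at percentile 0.539, Ces2a at percentile 98.8 and Ces1f at percentile 99.8, and in the villus-labelled pair they stood at percentiles 7.23, 99.6 and 99.5.

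After surgery the carboxylesterases again differed in both fractions. In HFD VSG against HFD sham, 2 of 10 members were past the limit in the crypt-labelled pair (Ces2a and Ces1f, both lower) against 11.9% of 11172 genes (8.6% higher and 3.26% lower). This count was 6 with cells of at most 10% mitochondrial UMIs, where Cyp3a11 was at -1.04, Cyp2b10 at -0.82, Abcb1a at -0.56 and Cyp3a13 at -0.53, against 19.6% of all genes, and 4 with cells thinned to 1500 UMIs, where Cyp2c66 was higher at 0.58 and Ugt1a1 at 0.55, against 7.05% of all genes at their expected thinned counts. The median of all genes in this pair was 0.11 in log2, and the members' median was -0.12. In the villus-labelled pair 9 of 10 members were lower past the limit, all but Cyp2c66, with a median of -1.30, but 46.2% of 11511 genes were past it in this pair (26.0% higher and 20.2% lower). With bins weighted equally, 4 of 10 remained (Ces2a, Ces1f, Ugt1a1 and Abcb1a), against 33.4% of all genes under that weighting. Ces2a and Ces1f were past the limit in both fractions. In HFD VSG against LFD sham, 3 of 10 members were past the limit in the crypt-labelled pair (Cyp3a11, Cyp3a13 and Cyp2b10, all lower) against 17.8% of 11383 genes (11.7% higher and 6.17% lower). In the villus-labelled pair 8 of 10 were past it, Ces2a and Ces1f higher and 6 lower, against 46.0% of 11604 genes (22.3% higher and 23.7% lower), and with bins weighted equally 4 of 10 remained (Cyp3a11, Cyp3a13 and Ugt1a1 lower and Ces2a higher), against 36.3% of all genes under that weighting. The 3 comparisons share libraries pairwise, so their values are not independent of each other. Beside these differences, the villus-labelled HFD VSG library had a median of 34782 UMIs and 8.51% mitochondrial UMIs in enterocyte-like cells, against 13495 to 17663 UMIs and 11.4% to 13.2% in the other 5, and its summed enterocyte markers were 57532.5 CPM against 73701 to 102751. Summed immune markers in enterocyte-like cells were 0.58 to 69.2 CPM, highest in villus-labelled LFD sham, where summed B cell markers were 159 CPM against at most 1.42 elsewhere. Stromal markers were at 0.31 to 0.97 CPM. With cells thinned to 1500 UMIs, 8 members were past the limit in both villus-labelled comparisons of HFD VSG, and with free RNA taken off by the fractions from immune-like cells 10 were past it against HFD sham and 6 against LFD sham. The fraction of the villus-labelled HFD sham library came from only 7 immune-like cells, so the count of 10 is uncertain. The shares of all genes were 41.5% and 48.8% at expected thinned counts and 47.2% and 50.1% with free RNA taken off.

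**Figure D5:**
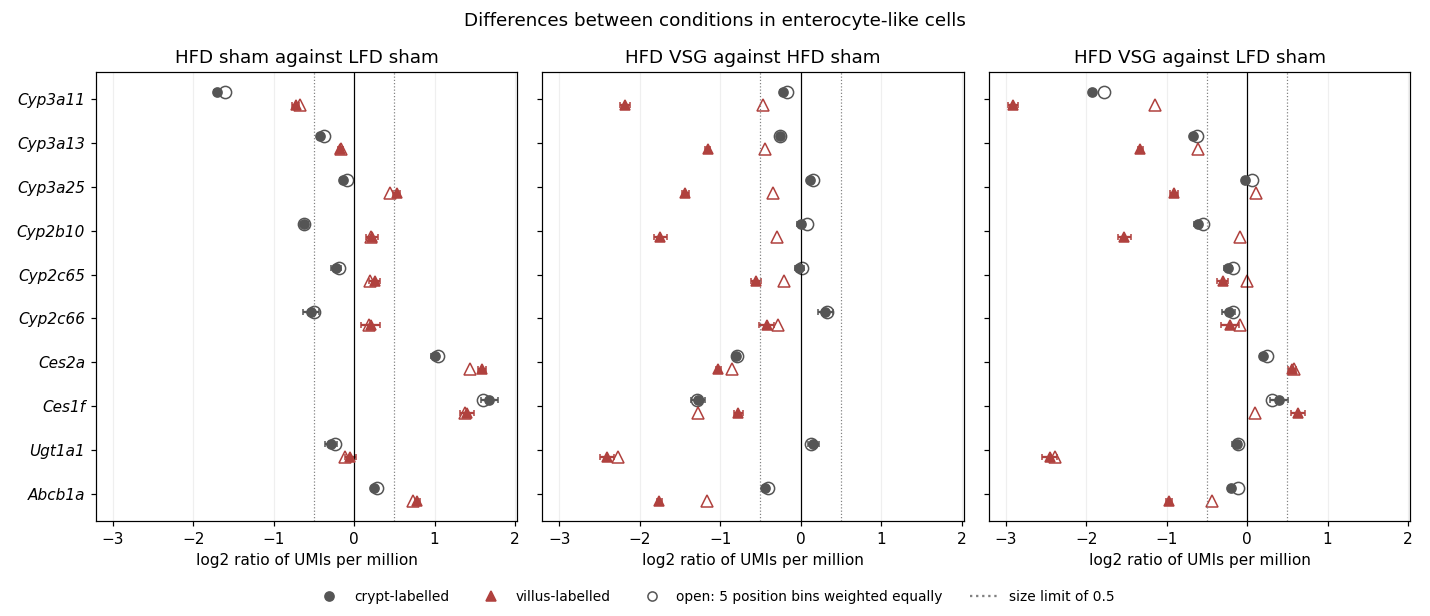
Log2 ratios of CPM in enterocyte-like cells for the 3 comparisons, crypt-labelled as circles and villus-labelled as triangles, with 95% counting intervals on filled symbols, the size limit of 0.5 as dotted lines, and open symbols for 5 position bins weighted equally. Ces2a and Ces1f lie right of the limit for HFD sham against LFD sham and left of it for HFD VSG against HFD sham in both fractions, while most villus-labelled HFD VSG ratios of the cytochromes shrink when bins are weighted equally and that of Ugt1a1 stays at -2.28.

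The fraction label itself went with the levels. Within each condition, Cyp3a11, Cyp3a13, Cyp3a25, Cyp2b10 and Abcb1a were higher in enterocyte-like cells of the crypt-labelled than of the villus-labelled library, and Ces1f was lower (log2 -1.36 to -0.85). Past the limit were 5 members higher and 1 lower in LFD sham (7.24% and 21.3% of all genes), 0 higher and 1 lower in HFD sham (4.81% and 12.8%), and 7 higher and 1 lower in HFD VSG (24.8% and 28.1%). The enterocyte-like cells of the crypt-labelled libraries also lay nearer the tip, with 2.41% to 9.66% of them in bin 1 against 22.2% to 77.5% in the villus-labelled libraries.

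The wider pathway was read from a list of 81 other genes, of which 62 or 63 had enough UMIs in each comparison. In HFD sham against LFD sham 13 were higher and 5 lower past the limit in the crypt-labelled pair (6.27% and 8.15% of all genes), and 31 higher and 2 lower in the villus-labelled pair (5.23% and 11.9%), with median log2 ratios of 0.11 and 0.46. Other phase I genes made up 10 and 19 of those that were higher. Among those with a mean of at least 100 UMIs, the glucuronosyltransferase Ugt2b5 (1.36 and 1.72) and the carboxylesterase Ces1g (1.47 and 2.42) were the highest in both fractions, and the cytochromes Cyp2c55 (-1.35 and -0.35) and Cyp2u1 (-0.63 and -0.51) the lowest. Chosen after their values were seen, the others that were lower past the limit were Nr1i2 (-0.58), Sult1d1 (-0.58) and Cyp3a44 (-2.69) in the crypt-labelled and Cyp3a44 (-4.16) in the villus-labelled pair, Cyp3a44 on a mean of only 24.5 and 20.5 UMIs. In HFD VSG against HFD sham the counts were turned, with 1 higher and 13 lower in the crypt-labelled pair (8.6% and 3.26% of all genes) and 1 higher and 30 lower in the villus-labelled pair (26.0% and 20.2%). The villus-labelled gene that was higher was the sulfotransferase Sult1c2 (1.83, on a mean of 38.5 UMIs, named after its value was seen). Among those with a mean of at least 100 UMIs, the highest were Cyp2u1 (0.56) and Cyp2c55 (0.49) in the crypt-labelled pair and the uptake carrier Slco2b1 (0.34) and the bile acid receptor Nr1h4 (0.25), both inside the limit, in the villus-labelled pair. The lowest were Ces1g (-1.70) and Ces1d (-1.59), and Cyp2c29 (-2.93) and Ces1d (-2.11). HFD VSG against LFD sham gave 5 higher and 8 lower in the crypt-labelled pair (11.7% and 6.17% of all genes), led at that depth by Ces2c (0.74) and Ugt2b5 (0.87) and by Ces1d (-1.65) and Cyp2c29 (-1.29), and in the villus-labelled pair 7 higher and 17 lower (22.3% and 23.7% of all genes), led by Aadac (0.83) and Ces2b (0.67) and by Cyp2c55 (-2.02) and Cyp4v3 (-1.20). The other 3 that were higher in the crypt-labelled pair, named after their values were seen, were Ces2b (1.74), Cyp4f40 (0.54) and Ces3a (0.52). The receptor genes were likewise named after their values were seen. Nr1i2, which encodes PXR, was below LFD sham in HFD sham by -0.58 (-0.67 to -0.49) in the crypt-labelled and -0.23 (-0.33 to -0.13) in the villus-labelled pair. Nr1i3, which encodes CAR, was above it by 0.22 (0.14 to 0.31) and 0.63 (0.54 to 0.72).

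The genes whose levels most resembled a member were sought over the 30 combinations of library and position bin among 9154 genes, by Pearson correlation of log2 levels. The points share libraries, depth and the position score, and the correlations are a description. The nearest to Cyp3a13 was Fam102a (r = 0.95), to Cyp3a25 Mpp1 (0.97) and to Cyp2b10 Prxl2a (0.97). For Cyp2c65 it was Ergic2 (0.91), for Cyp2c66 Sfxn1 (0.94), for Ugt1a1 Man2a1 (0.93) and for Abcb1a Flvcr1 (0.92). Ces1f was nearest to Aadac (0.96), a microsomal deacetylase, and Ces2a was nearest to the glutathione transferases Gsta2 and Gsta3 (0.85 and 0.82). Among the members themselves, the highest correlation was between Cyp2b10 and Cyp3a25 (0.92) and the lowest between Ces1f and Cyp3a13 (-0.69).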

How the data were processed

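Jejunal epithelium was profiled in 6 libraries with 10x Genomics 3′ v3.1 chemistry, and the crypt-labelled and villus-labelled libraries of a condition came from the same mice. Per the submitters' notes, Cell Ranger 6.0.0 was run against mm10. The matrices that the authors deposited hold raw UMI counts of each gene in each barcode and were not normalized. The deposited counts of the filtered matrices were used, and those of the unfiltered matrices served to measure free RNA. A 3′ UMI counts 1 molecule whatever the transcript length, but how well each gene is captured is not known. The 10 genes, the gene lists and the alternatives were chosen with earlier results of these data known.

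Barcodes with at least 750 genes and at most 20% mitochondrial UMIs were kept. As doublets, the barcodes with the highest scores against simulated pairs were removed, in a share that grew with the number of barcodes called (482 to 1154 per library). Libraries were integrated on 2000 genes, the 10 genes and the pathway list left out, and 30 components, and clustered at resolution 0.4 in R 4.3.3 with Seurat 5.3.0, sctransform 0.4.2 and Matrix 1.6.5. Clusters were named from fixed marker lists, but the thresholds of the naming rule were set after the data were seen. A marker counted against the 25th percentile of its level over clusters, and a cluster stayed unnamed where markers of other classes outnumbered its own among its 10 leading genes, or where a gene of damaged droplets was among them. The names are rebuilt and may differ from those of the study. Position was scored in enterocyte-like cells from tip markers (Ada, Nt5e, Slc28a2, Krt20, Pmp22, Serpinb1a, Klf4, Enpp3 and Clca4a) and bottom markers (Lypd8, Nlrp6, Il18, Ccl25, Tstd1, Gna11, Bcl2l15 and Aldh1a1), in 5 bins.

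UMIs were summed per class and library and divided by the class total. A ratio needed 20 UMIs or more on average over both libraries. Since each group was 1 library, no test between conditions was possible. The 10 genes are named in every result, and genes of the pathway list only where they held the 2 highest or 2 lowest ratios of a comparison with a mean of at least 100 UMIs, or as stated. The most similar genes were the 3 with the highest correlation among those with a mean of at least 20 UMIs over 30 points. The nearest gene of each member is named, and that of Cyp3a11 is not reported here. The ratio code was tested on simulated counts for HFD sham against LFD sham, crypt-labelled. Of 200 genes changed by 1 in log2 among 10773, it put 99.5% past the size limit, as well as 2.52% of the unchanged genes. The scripts ran on Python 3.11.15 with pandas 2.3.3, scipy 1.17.1, scikit-learn 1.9.0, matplotlib 3.10.9 and numpy 2.4.6. Alternatives covered the filters, doublets, class definition, free RNA, scaling, thinning, position mix and size limit.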

Additional observations from a re-analysis of the deposited data

How the results depend on the processing

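No paired analysis was run between conditions, since each condition had 1 library of each fraction and the labels give no replicate numbers. The crypt-labelled and villus-labelled libraries of a condition form 3 pairs, which allow no 2-sided exact p below 0.25, and were compared as values only. For lack of replicates no library could be left out. Of the values of single genes under the alternatives, 462 moved by less than their counting interval, 376 moved by more and 2 that were past the size limit turned in sign. Of 392 values of ratios within the limit, 33 also had the other sign, from ratios of at most 0.29 in size, and 1 of them was then past the limit (Cyp2b10 in HFD VSG against HFD sham, crypt-labelled, from 0.0048 to -0.82 with at most 10% mitochondrial UMIs). Of the 2, Cyp3a25 in HFD VSG against LFD sham, villus-labelled, went to 0.11 with 5 position bins weighted equally. Ces1f in that pair went to -0.016 with the 3 lower bins weighted equally, an alternative added after seeing the data. For the counts of members past the size limit, a limit of 1 in log2 gave 3 and 2 in HFD sham against LFD sham (crypt-labelled and villus-labelled), 1 in HFD VSG against HFD sham, crypt-labelled, and 1 and 4 in HFD VSG against LFD sham, where 3.40% and 5.89%, 2.70%, and 3.78% and 15.1% of all genes were past it. A maximum of 10% mitochondrial UMIs gave 6 and thinning cells to 1500 UMIs gave 4 in HFD VSG against HFD sham, crypt-labelled. Weighting 5 position bins equally gave 4 in both villus-labelled HFD VSG comparisons, and weighting the 3 lower bins equally gave 3 in HFD sham against LFD sham and 4 in HFD VSG against LFD sham, villus-labelled, against 17.5% and 34.8% of all genes. A larger size limit lowers a count by construction, and the cause of the other moves was not tested. Across the alternatives Cyp3a11 in HFD sham against LFD sham, crypt-labelled, ranged from -1.75 to -1.39, Ces2a from 0.96 to 1.24 and Ces1f from 1.52 to 1.90, and Ugt1a1 in HFD VSG against HFD sham, villus-labelled, from -2.59 to -2.28. Some other ratios past the limit were less steady. Cyp2c66 in HFD sham against LFD sham, crypt-labelled, ranged from -0.71 to -0.048 and was past it in 9 of 14 alternatives. Cyp3a25 in the villus-labelled pair ranged from 0.45 to 0.68 and was past it in 8. In HFD VSG against LFD sham, villus-labelled, Ces1f was past it in 9 and Ces2a in 10. Abcb1a in HFD VSG against HFD sham, crypt-labelled, was within the limit at -0.44. Its values ranged from -0.71 to -0.32 and were past the limit in 3 of 14 alternatives. Median-of-ratios scaling shifted the crypt-labelled HFD VSG comparisons by -0.11 and -0.10. Depth limits the non-enterocyte classes most, where some genes had under 50 UMIs in all.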

Other observations

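The 2 unnamed clusters held 3716 cells, 1 of them with hemoglobin, hormone and lymphocyte genes and the other with immunoglobulin genes and Gm42418 among its leading genes. Enterocyte genes such as Apoa1 were also among the leading genes of both. Enterocyte was the candidate class of both clusters, with 12 of 12 and 11 of 12 markers counted. The median ratio of the enterocyte-like to the unnamed level over the 6 libraries was 1.19 for Ces2a and 1.32 for Abcb1a, at the low end, and 2.09 for Cyp2b10, at the high end. Ces2a was higher in the unnamed cells in 1 of 6 libraries.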
